A study of Mus musculus with 9 samples.

Results

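The genes described here are 10 cyclins, cyclin-dependent kinases (Cdks) and Cdk inhibitors, namely *Cdk1*, *Cdk2*, *Cdk4*, *Ccna2*, *Ccnb1*, *Ccnd1*, *Ccnd2*, *Cdkn1a*, *Cdkn1b* and *Cdkn1c*. They were taken by symbol from a table of 22013 transcript-level entries, of which 15820 carry a gene symbol. Each of the 10 symbols was found in 1 entry. The other 6193 entries are unnamed, and their share of the summed values ranged from 24.97% (compound KO replicate 1) to 35.51% (double KO replicate 3). Whether reads of the 10 genes were counted in unnamed entries was not tested. Each value below is therefore that of the named entry, which may not cover the whole gene. RNA was sequenced from mouse lenses of E16.5 embryos (the day of gestation) in 9 libraries, 3 for each of 3 genotypes, with the RNA of 8 lenses in each library. Control lenses were *Mafg*+/-:*Mafk*+/-, compound KO lenses were *Mafg*-/-:*Mafk*+/- and double KO lenses were *Mafg*-/-:*Mafk*-/-. *Mafg* and *Mafk* encode small Maf transcription factors, and the knockout (KO) alleles are germline alleles, so that every cell of the embryo carried them. All 3 groups therefore carried at least 1 KO allele of each gene, and no wild-type lens was in the comparison. The mice were kept on an ICR background, and the sources do not state how many embryos the 8 pooled lenses came from.

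A Cdk is active only when bound to a cyclin, and such pairs drive the successive steps of the cell cycle. D-type cyclins with Cdk4 act in the first gap phase, Cdk2 acts at the start of and during DNA replication, and Cdk1 with cyclins A and B drives entry into mitosis. The Cip/Kip inhibitors p21 (Cdkn1a), p27Kip1 (Cdkn1b) and p57Kip2 (Cdkn1c) bind these pairs and block them. In the lens, epithelial cells divide, and cells that move into the transition zone leave the cell cycle as they become fiber cells, where p27Kip1 and p57Kip2 are found. The study chose *Cdk1* and *Cdkn1c* as candidates from these same libraries, so their values here are not independent evidence of their direction.

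Values are the authors' normalized CPM, read as counts per entry scaled to the size of the library and then by 1 further factor for each library. That scaling was inferred from the library totals, which differ between libraries, and is not stated in the sources used here. They were compared within a gene and not between genes, because they are not divided by length. The targeted genes followed the labels, with *Mafg* between 112.9 and 134.5 in control libraries and between 10.1 and 26.2 in all 6 other libraries, and *Mafk* between 4.3 and 6.3 in control and compound KO libraries and at most 0.6 in double KO libraries. Lens fiber markers (14 entries) summed to between 122526 and 195798 in 8 libraries, and compound KO replicate 1 stood apart, at 60860. In that library, the summed level of mesenchyme markers was 2243, against at most 229.9 in any other, and that of the pigment epithelium list was 708.5, against at most 56.1. Because these are whole lenses, fewer cells that express a gene and less RNA per cell cannot be told apart.

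Of the 10 genes, *Cdk1* was the 1 that passed the test between double KO and control lenses, and it was lower. A gene was called at a limma adjusted p of at most 0.05 (Benjamini-Hochberg, two-sided, over all 14122 genes tested) and a change of at least 1.5-fold, and 0.361% of all genes tested were called in this comparison (0.0779% as lower). All 10 genes passed the filter on low values. When the p was taken before adjustment, with the same limits, *Cdk1* passed as lower and *Cdkn1c* as higher, against 2.83% of all genes (1.24% lower and 1.59% higher). The same 2 genes had no overlap between control and double KO libraries, *Cdk1* lying below and *Cdkn1c* above, and 15.8% of all genes had none (8.04% below and 7.78% above). The median log2 fold change was 0.15 over the 10 genes and 0.01 over all genes tested. Of the 14122 genes tested, 7456 had a log2 fold change above 0 and 6663 one below 0.

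**Figure D1:**
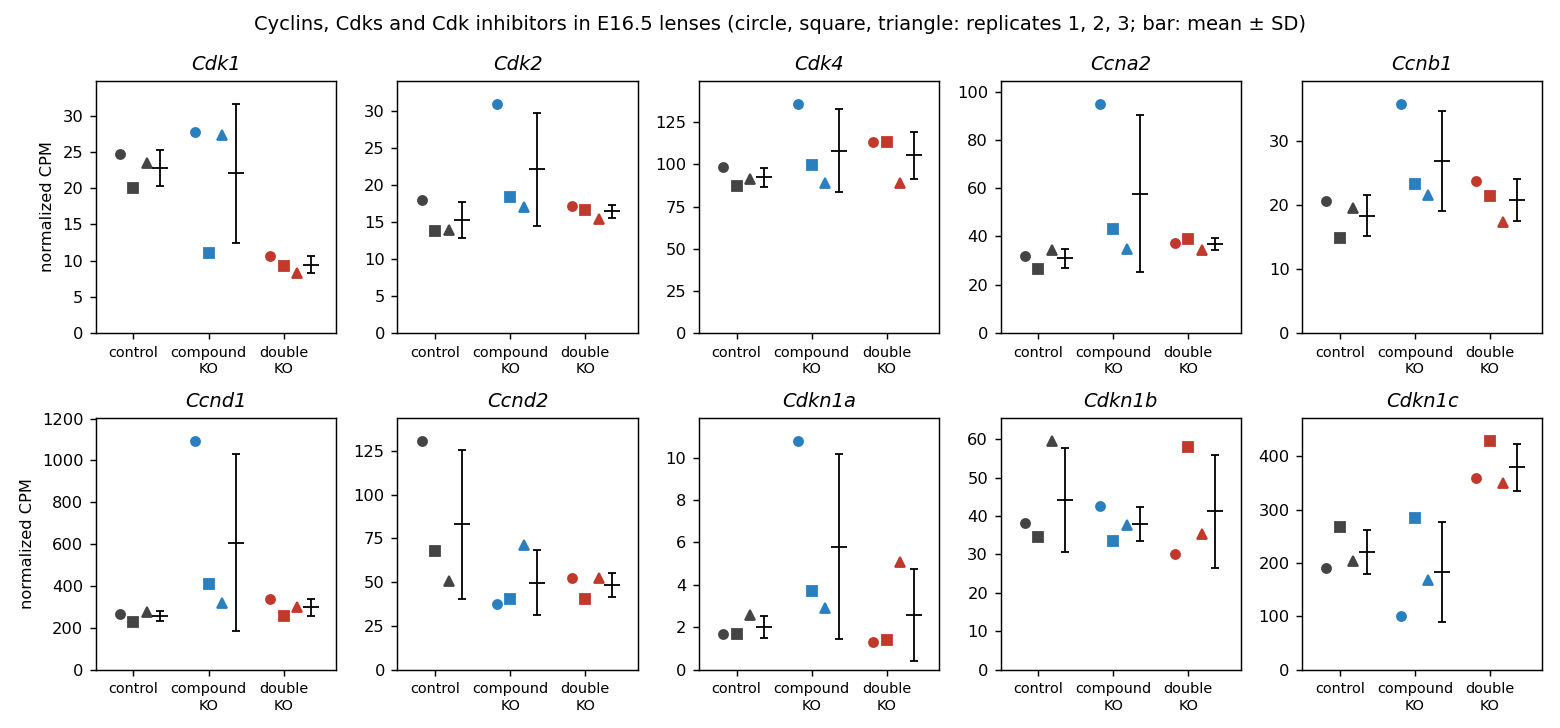
Normalized CPM of each gene (y axis, from 0) in the 3 control, 3 compound KO and 3 double KO libraries (x axis), with circles, squares and triangles for replicates 1, 2 and 3 and bars for the mean ± SD. *Cdk1* lies between 8.3 and 10.7 in double KO lenses and *Cdkn1c* between 349.6 and 429.0, while compound KO replicate 1 is the highest library for 7 of the 10 genes.

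*Cdk1*, the kinase of mitotic entry, was at 24.8, 20.0 and 23.5 normalized CPM in control libraries, at 27.8, 11.0 and 27.4 in compound KO libraries and at 10.7, 9.3 and 8.3 in double KO libraries. Every double KO library lay below every other library, and compound KO replicate 2, at 11.0, lay close to the highest of them. The control mean was 22.8 ± 2.48, the compound KO mean 22.1 ± 9.59 and the double KO mean 9.43 ± 1.21 (SD, n = 3 each). Between double KO and control lenses, *Cdk1* fell by 1.19 on the log2 scale (standard error 0.13, 95% interval −1.50 to −0.87, adjusted p = 0.0375, limma). On the same scale its value ranked 128 from the lowest among the 14122 genes tested. The call was lost when any 1 of the 6 libraries was left out, with log2 fold changes of −1.28 to −1.11 and adjusted p-values of 0.0650 to 0.165 (limma), the latter without control replicate 3. It was also lost in a single fit of all 9 libraries, which share 1 estimate of the spread (adjusted p = 0.557, limma), and with scaling to the same total (adjusted p = 0.105, limma). *Cdk1* lies on chromosome 10 of GRCm39 from 69170976 to 69236595, on the minus strand, where GENCODE places *Gm47211* on the same strand and *Ank3* on the other within its bounds.

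The promoters of *Cdk1* and *Ccnb1*, which encodes the cyclin partner of Cdk1 in mitosis, are shown because *Cdk1* was called and its partner was not. The 250 bases before each RefSeq start, given 5′ to 3′, were read from a RefSeq table of build GRCm38.p6 and found once each in GRCm39, at chr10:69188743-69188992 (minus strand) for *Cdk1* and at chr13:100922995-100923244 (minus strand) for *Ccnb1*. Capitals mark matches on either strand to 4 sets of letters.
Cdk1: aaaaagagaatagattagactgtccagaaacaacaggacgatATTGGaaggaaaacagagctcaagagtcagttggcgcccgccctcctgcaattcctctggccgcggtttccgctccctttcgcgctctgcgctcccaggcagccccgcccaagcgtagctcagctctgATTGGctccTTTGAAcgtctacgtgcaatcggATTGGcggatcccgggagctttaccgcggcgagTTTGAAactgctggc
Ccnb1: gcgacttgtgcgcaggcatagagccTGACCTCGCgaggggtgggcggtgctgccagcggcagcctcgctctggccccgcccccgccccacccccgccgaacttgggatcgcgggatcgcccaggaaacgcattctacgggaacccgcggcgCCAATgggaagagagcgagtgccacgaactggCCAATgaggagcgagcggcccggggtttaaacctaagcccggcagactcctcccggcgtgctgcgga
The sets were TTTGAA (the CHR element, through which the DREAM complex acts on mitotic genes), CCAAT (the CCAAT box, bound by NF-Y), TGACNNNGC (the core of the antioxidant response element, which small Maf proteins bind with CNC partners) and TGCTGAC (1 side of the palindromic Maf recognition element). The *Cdk1* window held 2 CHR matches, which start 71 and 15 bases before the RefSeq start, 3 CCAAT matches and neither of the last 2. The *Ccnb1* window held 2 CCAAT matches, 1 match to the antioxidant response core and no TTTGAA. Other forms of the CHR element were not searched, so the lack of TTTGAA does not show that *Ccnb1* lacks the element. No match overlapped another in these windows. The *Cdk1* window lies inside the annotated span of its gene, and the *Ccnb1* window overlaps in part the annotated span of *Ccnb1*, which runs from 100915153 to 100923116. Of 32851 promoter windows of this length in the table, 16.0% held the CHR letters, 33.8% CCAAT, 10.2% the antioxidant response core and 3.81% the Maf element letters. Of the 10 genes, 6 were matched in the table, and *Ccna2*, *Ccnd1*, *Ccnd2* and *Cdkn1c* were not. Among the other 4 matched, *Cdk4* held 2 matches to the antioxidant response core, and *Cdk2*, *Cdkn1a* and *Cdkn1b* held none.

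The genes of the cyclins that bind Cdk1 did not pass the test. *Ccnb1* (chromosome 13, 100915153 to 100923116, minus strand) was at 20.7, 14.8 and 19.6 in control libraries, 35.8, 23.3 and 21.6 in compound KO libraries and 23.7, 21.4 and 17.3 in double KO libraries. Its control and double KO values overlapped, with a log2 fold change of 0.17 (95% interval −0.25 to 0.59, adjusted p = 0.799, limma). *Ccna2* (chromosome 3, 36619014 to 36626299, minus strand), which encodes the cyclin A of somatic cells, was at 31.9, 26.6 and 34.3 in control libraries, 94.9, 43.1 and 35.0 in compound KO libraries and 37.4, 39.1 and 34.3 in double KO libraries. Its lowest double KO library equalled its highest control library, and the log2 fold change was 0.25 (95% interval −0.02 to 0.53, adjusted p = 0.536, limma). For both cyclins, the interval of the change between double KO and control lenses lay above the whole interval of *Cdk1*.

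Nor did the other 2 kinase genes pass it. *Cdk2* (chromosome 10, 128533796 to 128540963, minus strand), the kinase of the replication phase, was between 13.7 and 18.0 in control libraries, between 17.0 and 30.9 in compound KO libraries and between 15.4 and 17.2 in double KO libraries, and its log2 fold change in the double KO against controls was 0.11 (95% interval −0.19 to 0.42, adjusted p = 0.824, limma). It shares its locus with *Pmel*, a pigment cell gene on the opposite strand, which was at 423.9 in compound KO replicate 1, where *Cdk2* was highest, and at most 17.2 elsewhere. Of the 10 genes, all but *Ccnb1* overlap another annotated gene, 2 of them on the same strand, and the sources used here do not say whether the counting used the strand. *Cdk4* (chromosome 10, 126895180 to 126903789, plus strand), the partner of D-type cyclins, had means of 92.3 ± 5.57 (control), 108 ± 24.6 (compound KO) and 105 ± 14.1 (double KO; SD, n = 3 each), and all 3 groups overlapped. Its coefficient of variation in control lenses, 6.03%, was the smallest of the 10 genes in that group.

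**Figure D2:**
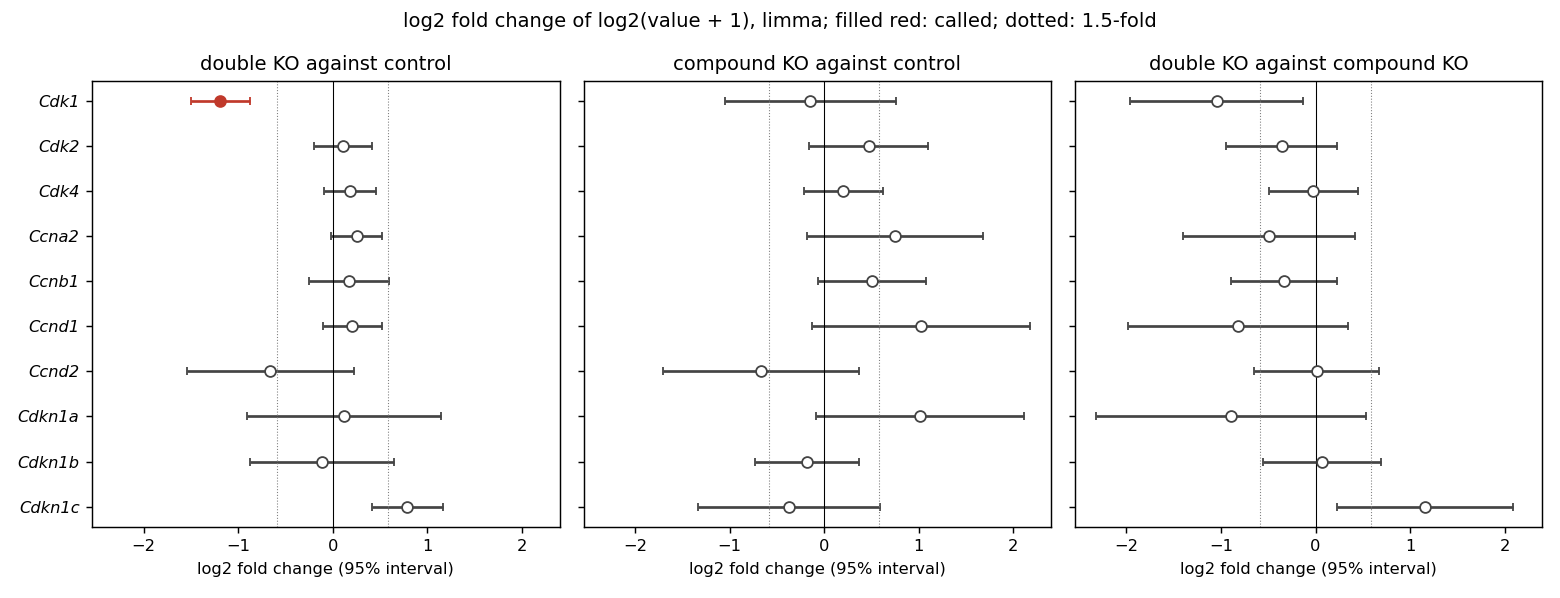
Log2 fold change (x axis) of each gene (y axis) in the 3 comparisons of genotypes, on the log2(value + 1) scale, with 95% intervals from limma; dotted lines mark 1.5-fold and the filled red point is the 1 called gene. Between double KO and control lenses the interval of *Cdk1* runs from −1.50 to −0.87 and that of *Cdkn1c* from 0.41 to 1.16, and the other 8 intervals include 0.

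A ratio to *Cdk1* within a library cancels the scaling between libraries, apart from the 1 that was added to each value. The log2 ratio of *Ccnb1* to *Cdk1* was −0.25, −0.41 and −0.25 in control libraries, 0.35, 1.02 and −0.33 in compound KO libraries and 1.08, 1.12 and 0.98 in double KO libraries. The double KO libraries all lay above the control libraries, and the SD was 0.09 for controls and 0.07 for the double KO. The compound KO libraries were spread over the range of both, replicate 3 among the control libraries and replicate 2 among the double KO libraries. The log2 ratio of *Ccna2* to *Cdk1* was between 0.35 and 0.53 in control libraries and between 1.72 and 1.96 in double KO libraries, and it was 1.74, 1.88 and 0.34 in compound KO libraries. That of *Cdk2* to *Cdk1* was −0.56 ± 0.14 (SD, n = 3) in control lenses and 0.74 ± 0.09 in double KO lenses. The ratio of *Ccna2* to *Cdk2*, which leaves out *Cdk1*, was 0.98 ± 0.23 and 1.12 ± 0.06, with overlap. These ratios were formed after the values were seen and are given with no test.

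**Figure D3:**
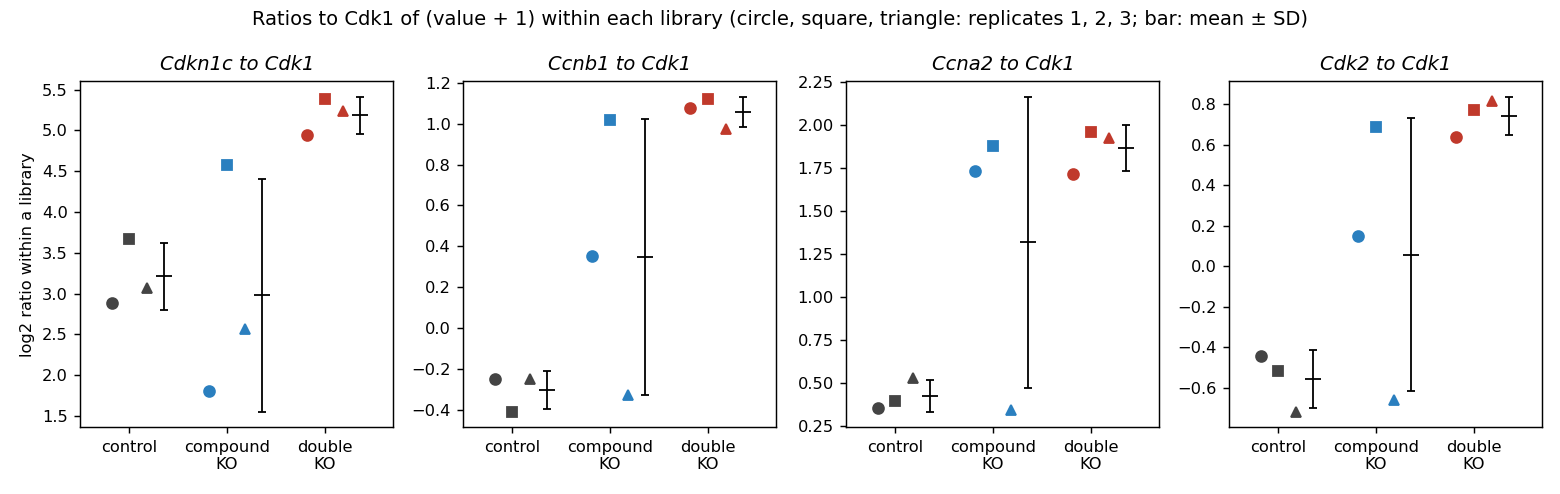
Log2 ratio to *Cdk1* within each library (y axis) for *Cdkn1c*, *Ccnb1*, *Ccna2* and *Cdk2* by genotype (x axis), with circles, squares and triangles for replicates 1, 2 and 3 and bars for the mean ± SD. In all 4 panels the double KO libraries lie above the control libraries, and compound KO replicate 3 is at 2.57, −0.33, 0.34 and −0.66, below every double KO library.

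*Cdkn1c*, the inhibitor p57Kip2, was at 190.4, 267.3 and 203.9 normalized CPM in control libraries, 99.8, 284.8 and 167.2 in compound KO libraries and 358.2, 429.0 and 349.6 in double KO libraries. Every double KO library lay above every other library. Against controls, the double KO log2 fold change was 0.79 (standard error 0.15, 95% interval 0.41 to 1.16, adjusted p = 0.194, limma), which did not pass the test. With each library left out, it stayed between 0.69 and 0.93, with adjusted p-values of 0.10 to 0.479 (limma). Against the compound KO it was 1.16 (standard error 0.38, adjusted p = 0.665, limma). *Cdkn1c* lies on chromosome 7 of GRCm39 from 143012069 to 143014806 in a cluster of imprinted genes. Of 10 other genes of that cluster and the nearby *Igf2* and *H19* locus that were tested, none was called between double KO and control lenses (limma). The smallest p among them was that of *Cars* (log2 fold change −0.19), and their median log2 fold change was 0.07.

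The log2 ratio of *Cdkn1c* to *Cdk1* was 2.89, 3.68 and 3.06 in control libraries, 1.81, 4.57 and 2.57 in compound KO libraries and 4.94, 5.38 and 5.24 in double KO libraries. The double KO libraries lay above all others. This had to follow, because every double KO library was the lowest for *Cdk1* and the highest for *Cdkn1c*. Both genes were also chosen with earlier results of these data known. The permutation p-values of the double KO comparisons were therefore fixed in advance and are no support. The mean ratio was higher by 1.98 in double KO than in control lenses and by 2.20 than in compound KO lenses (exact permutation test, two-sided, p = 0.1 for each, the smallest that 3 against 3 libraries allow). Adjusted over the 3 comparisons of genotypes made on this ratio, the p-values of the exact permutation tests were 0.15, 0.15 and 0.8 (double KO against control, double KO against compound KO and compound KO against control). Compound KO and control lenses differed by −0.23, less than the SD of 1.43 among the compound KO libraries (exact permutation p = 0.8).

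The genes of the other 2 Cip/Kip inhibitors had overlapping groups. *Cdkn1b* (p27Kip1; chromosome 6, 134897364 to 134902476, plus strand) was at 38.2, 34.6 and 59.6 in control libraries, 42.6, 33.6 and 37.6 in compound KO libraries and 30.2, 57.9 and 35.4 in double KO libraries, and 1 control and 1 double KO library stood above the rest of their groups. The double KO log2 fold change against controls was −0.11 (95% interval −0.88 to 0.65), and its sign changed when control replicate 3 or double KO replicate 1 was left out. *Cdkn1a* (p21; chromosome 17, 29309936 to 29319701, plus strand), a p53 target, had low values, at 1.7, 1.7 and 2.6 in control libraries, 10.8, 3.7 and 2.9 in compound KO libraries and 1.3, 1.4 and 5.1 in double KO libraries. The same log2 fold change was 0.12 for *Cdkn1a* (95% interval −0.90 to 1.14) and turned to −0.34 without double KO replicate 3. Of 12 other p53 target genes tested, none was called (limma), 2 had log2 fold changes above 0 and 10 below 0, with a median of −0.08. The smallest p among them was that of *Sesn1*, a stress-response gene, at 57.0 to 62.0 in control libraries, 35.3 to 39.5 in compound KO libraries and 34.7 to 40.7 in double KO libraries (double KO log2 fold change against controls −0.65, adjusted p = 0.0516, limma). *Fas* (−0.83), *Mdm2* (−0.11) and *Sesn2* (0.18) followed, with adjusted p-values of 0.407 to 0.669 (limma).

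The D-type cyclins link growth signals to Cdk4. *Ccnd1* (chromosome 7, 144483668 to 144493662, minus strand) was at 266.6, 228.7 and 275.7 in control libraries, 1094, 409.6 and 318.0 in compound KO libraries and 339.2, 255.1 and 297.6 in double KO libraries. All compound KO libraries lay above all control libraries, and control and double KO libraries overlapped. *Ccnd2* (chromosome 6, 127102125 to 127129156, minus strand) was at 130.9, 67.6 and 50.5 in control libraries, 37.8, 40.2 and 71.5 in compound KO libraries and 52.2, 40.5 and 52.7 in double KO libraries. Control replicate 1 set its high control mean of 83.0 ± 42.4 (SD, n = 3), and the log2 fold change of the double KO against controls was −0.66 with that library and −0.27 without it, neither passing the test. The log2 ratio of *Ccnd2* to *Ccnd1* was between −2.43 and −1.02 in control libraries and between −2.68 and −2.48 in double KO libraries. These did not overlap, but the lowest control library lay close to the highest double KO library. In compound KO libraries the ratio was −4.82, −3.32 and −2.14, a range that spans the double KO libraries and overlaps the control libraries. It is given with no test.

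Between compound KO and control lenses, none of the 10 genes was called (limma), none had an unadjusted p below 0.05, and 0% of the 14348 genes tested were called, while 5.34% passed at an unadjusted p and 1.5-fold. *Ccna2*, *Ccnb1*, *Ccnd1* and *Cdkn1a* lay above every control library in all 3 compound KO libraries, 4 of 10 genes against 12.2% of all genes with such a separation upward. Their log2 fold changes were 0.75, 0.51, 1.03 and 1.01, with an adjusted p of 0.481 each (limma), and without compound KO replicate 1 they were 0.33, 0.29, 0.49 and 0.53. The coefficient of variation ran from 11.9% to 75.0% over the 10 genes in the compound KO, against 6.03% to 51.0% in controls and 5.59% to 83.3% in the double KO, and it was largest in the compound KO for 7 genes. Compound KO replicate 1 was the highest of the 9 libraries for 7 genes and the lowest for *Ccnd2* and *Cdkn1c*. The summed level of the 25 proliferation markers was 1524 in that library, against 748.4 and 782.0 in the other two of its group and between 576.9 and 729.1 in control libraries. This is also the library with the high markers of mesenchyme, pigment epithelium, retina and surface epithelium, whose part in these values was not tested.

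When double KO was set against compound KO, limma called none of the 10 genes and 0.0139% of 14402 genes in all (0.00694% higher and 0.00694% lower). *Cdk1* (log2 fold change −1.04, standard error 0.37, adjusted p = 0.665, limma) and *Cdkn1c* passed when the p was not adjusted, *Cdk1* as lower and *Cdkn1c* as higher, against 3.06% of all genes (2.2% lower and 0.854% higher). They were again the 2 genes without overlap, against 15.6% (7.39% below and 8.17% above). Without compound KO replicate 1 the log2 fold change was −0.83 for *Cdk1* and 0.79 for *Cdkn1c*, and the unadjusted p of *Cdk1* rose to 0.0934 (limma). This comparison and the one of double KO with control lenses share the double KO libraries.

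The wider cell cycle machinery was compared by lists. Of 25 proliferation markers tested between double KO and control lenses, none was called (limma), and 24 had a log2 fold change above 0. Over all genes, 7456 of 14122 were above 0. The median of the markers was 0.25, against 0.01 over all genes. Of these, 8 lay without overlap above the control libraries and none below, where 7.78% of all genes lay above. The 24 and the median include *Kif20a*, at 0.0, 0.1 and 17.6 in control libraries, which would not have passed the filter on low values without the double KO libraries. The smallest p-values were those of *Prc1* (log2 fold change 0.56), *Cenpa* (0.45), *Birc5* (0.37) and *Mcm7* (0.26), which act in spindle midzone formation, centromere identity, cytokinesis and replication licensing, with adjusted p-values of 0.313 to 0.465 (limma). *Mki67*, the gene of the Ki-67 antigen, was at 74.4, 29.5 and 68.2 in control libraries and 99.1, 46.4 and 70.4 in double KO libraries, with overlap. Of 16 regulators of the pair of Cdk1 and cyclin B, 14 had a log2 fold change above 0 and none was called, with a median of 0.22. The leading ones, *Cdc20* (0.27), *Bora* (0.37), *Cdc25c* (0.26) and *Fbxo5* (0.32), had adjusted p-values of 0.369 to 0.536 (limma). Between compound KO and control lenses the medians of these lists were 0.61 and 0.49, also with no call, and both groups are compared with the same control libraries.

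None of the other cell cycle lists held a called gene between double KO and control lenses. Of 17 other cyclins, 11 had a log2 fold change above 0, with a median of 0.06, and the smallest p was that of *Ccna1* (0.35), followed by *Ccng2* (0.27), *Ccnc* (−0.16) and *Ccnl1* (0.27). Of 15 other Cdks, 10 were below 0, with a median of −0.03. *Cdk18*, a member of the Pctaire group of Cdks, was at 2.5, 3.3 and 2.1 in control libraries, 1.0, 1.7 and 1.7 in compound KO libraries and 0.9, 0.4 and 0.5 in double KO libraries, all below the control libraries. It passed the filter on low values through the control libraries alone, so its log2 fold change of −1.18, which was not called, is given as a description. *Cdk10* (−0.36), *Cdk20* (0.34) and *Cdk19* (0.12) came next. Among 3 tested genes of the Ink4 family and *Cdkn3*, *Cdkn2b* (p15) was at 0.5 in all 3 control libraries and at 1.5, 0.7 and 2.6 in double KO libraries, through which alone it passed the filter, and its log2 fold change of 0.73 is likewise a description. *Cdkn2c* had a log2 fold change of 0.27 and *Cdkn2d* one of −0.02. Of 18 genes of the Rb, E2F and DREAM complexes, 10 were above 0, with a median of 0.06, led by *E2f2* (0.79), *Lin9* (0.32), *Lin37* (−0.26) and *Rbl2* (−0.21). Of 13 transcription factors and signals of lens cell cycle exit, 6 were above 0 with a median of −0.03, led by *Jag1* (−0.17), *Pitx3* (−0.17) and *Prox1* (0.49). *Prox1*, a factor of fiber differentiation, was at 237.2, 275.6 and 243.9 in control libraries and 427.1, 402.2 and 260.6 in double KO libraries, with overlap.

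**Figure D4:**
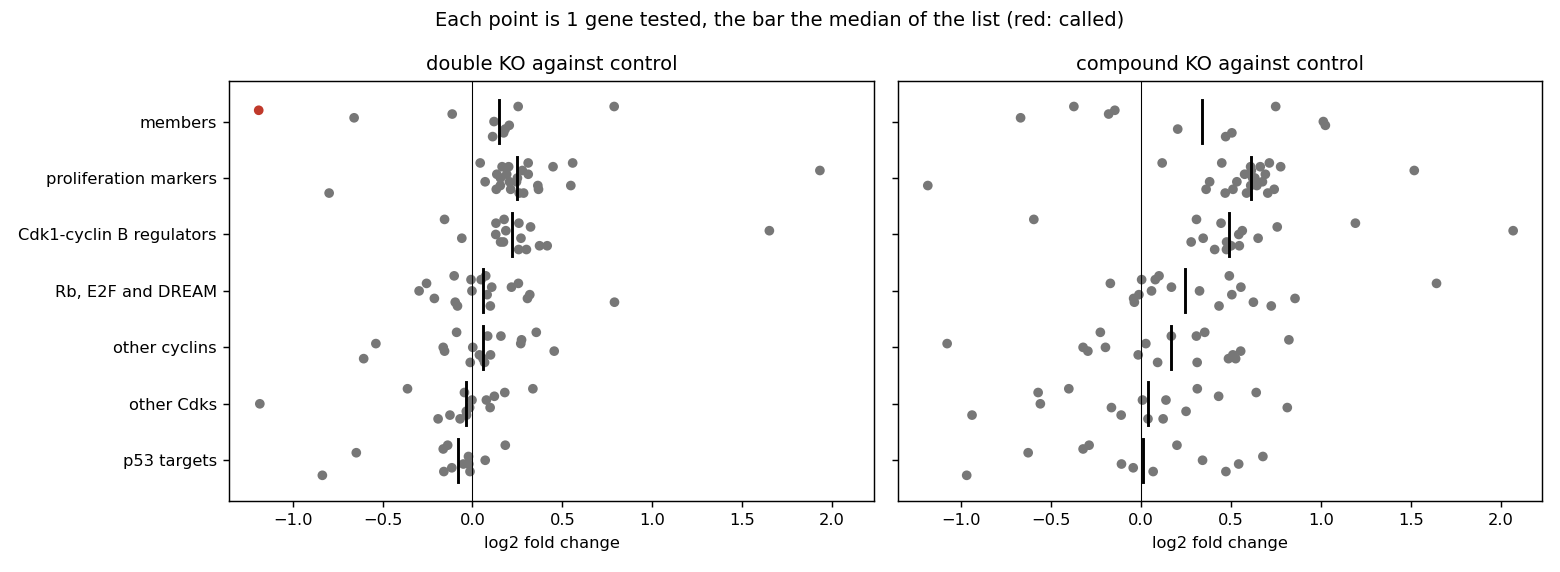
Log2 fold change (x axis) of each gene tested in 7 lists (y axis) in double KO lenses (left) and compound KO lenses (right) against control lenses, with the median of each list as a bar and the called gene in red. *Cdk1* is the red point at −1.19 on the left, while the median of the proliferation markers lies at 0.25 on the left and 0.61 on the right.

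The part of other cell types in the values above was not tested, and the levels of their markers follow. In double KO libraries, the summed level of 8 skeletal muscle markers was between 24.6 and 71.9, against 2.6 to 4.3 in control libraries, without overlap. The sum was between 18.7 and 284.0 in compound KO libraries, also above the control libraries. *Myod1*, at most 0.2 in control libraries, was at 2.6, 6.2 and 7.8 in compound KO libraries and at 9.2, 8.3 and 6.2 in double KO libraries. Because *Myod1*, *Ttn*, *Tnnt1*, *Tnnt3* and *Ckm* passed the filter on low values through the double KO libraries alone, no test or count is given for this list. The 8 erythroid markers summed to between 2340 and 3879, against 1171 to 1640, and 7 of 8 lay above without overlap, where 7.78% of all genes did, with none called. For mesenchyme the sums were 26.7 to 229.9 and 20.8 to 54.8, for endothelium 59.7 to 63.8 and 51.7 to 62.6, for neural retina 60.6 to 167.6 and 46.8 to 105.9, for pigment epithelium 29.0 to 43.1 and 30.6 to 45.1, for macrophages 4.8 to 10.1 and 8.5 to 11.3, and for surface epithelium 2.2 to 3.8 and 0.4 to 2.2 in double KO and control libraries. Among the markers of these other cell types, *Myod1*, *Ttn*, *Tnnt1* and *Ckm* were each listed at 0 in 1 control library. *Crx*, a photoreceptor gene, was listed at 0 in control replicate 2 and double KO replicate 2, *Pmel* in these and in compound KO replicate 3, and *Mlana* in control replicates 2 and 3 and double KO replicate 2. Of 8 lens epithelium markers, 5 were below 0 with a median log2 fold change of −0.10, and of 14 lens fiber markers 13 were below 0 with a median of −0.32, with no call in either list. Without overlap, 4 of the 14 fiber markers and 2 of the 8 epithelium markers lay below the control libraries, where 8.04% of all genes did.

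The genes whose pattern over the 9 libraries was most like that of *Cdk1*, by the root mean square difference of centred log2 values among 8150 entries with a mean of at least 10, were *Atf1* (0.32), *Srek1* (0.35), *Nedd4* (0.35), *Kif4* (0.36) and *Pttg1ip* (0.36). *Kif4*, which encodes a chromosome-bound kinesin of mitosis, was at 15.6, 12.1 and 14.5 in control libraries, 25.2, 5.0 and 16.7 in compound KO libraries and 4.3, 9.9 and 5.1 in double KO libraries. As in *Cdk1*, compound KO replicate 2 was the lowest of its group for *Kif4*. The same held for the others in this list, which were picked for their likeness to *Cdk1*. *Ccnb1* and *Ccna2* were farther from *Cdk1*, at 0.64 and 0.72, and ranked 2552 and 5438 of the 8150 entries. *Ccna2* was closer to *Ccnd1* (0.21), *Cdk2* (0.21) and *Ccnb1* (0.22), which ranked 177, 189 and 212 among the entries most like it. Those most like *Cdkn1c* were *Sepsecs* (0.22), *Gm266* (0.28), *Snhg12* (0.31), *Hacd4* (0.33) and *Lrtm1* (0.33). The measure is a description over 9 libraries that share their scaling and, for the compound KO group, 1 library that stands apart.

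**Figure D5:**
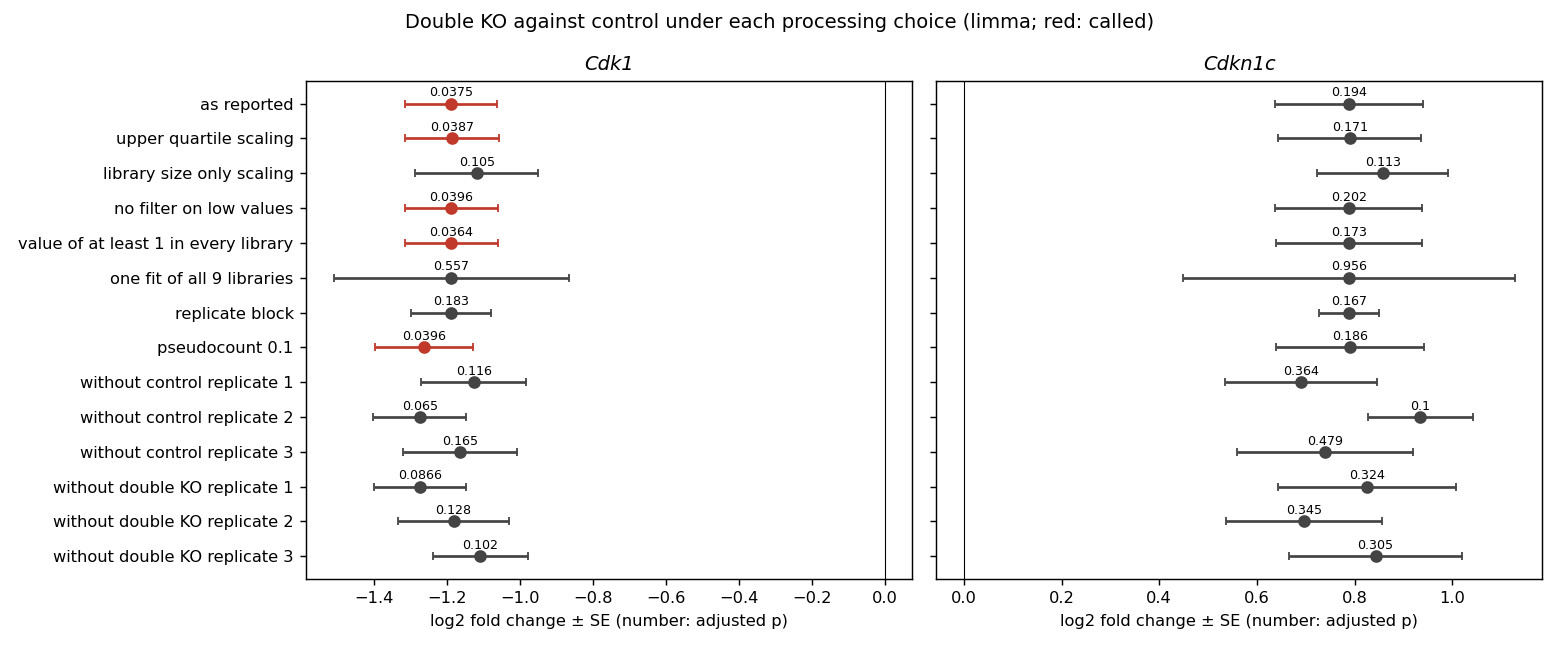
Log2 fold change ± SE (x axis) of *Cdk1* and *Cdkn1c* between double KO and control lenses under each processing choice (y axis), with the adjusted p from limma above each point and called values in red. *Cdk1* stays between −1.28 and −1.11 but is called in 5 of the 14 fits, and *Cdkn1c* stays between 0.69 and 0.93 and is called in none.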

How the data were processed

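Lens RNA libraries were strand-specific and paired-end. The authors trimmed reads (Trimmomatic in the submitters' processing notes), aligned them with HISAT2 (mm39), counted reads per transcript with StringTie and removed low entries in edgeR; versions are not given in the sources used here. The deposited values are a signal, CPM that the authors gave to 1 decimal. That they were scaled by a further factor for each library was inferred from their totals and is not stated in the sources used here. Library totals are between 728036 and 1131184 and are not depths. Read counts and depth are unknown, so no counting interval is given, and precision is the spread between libraries.

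Entries with a symbol that reached 1 in 2 or more of a comparison's 6 libraries were fitted with limma 3.58.1 (R 4.3.3, intensity trend, two-sided) on log2(value + 1), with Benjamini-Hochberg adjustment over all of them. Fold changes are on this scale, which understates those of low genes. Intervals are 95%. Descriptions used Python 3.11.15, numpy 2.4.6, pandas 2.3.3 and matplotlib 3.10.9. Chromosome positions are from GENCODE M39 on GRCm39, the same build as mm39. Nothing in the sources ties libraries to separate litters, so p-values measure the spread between these pools.

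The 10 genes and all lists were chosen with earlier results of these data known. Named genes are the 10, from each list the called genes or else up to 4 with the smallest p between double KO and control lenses, and the 5 patterns most like *Cdk1* and *Cdkn1c*. *Mki67*, *Kif4* as an example and the genes named for overlap or as markers at 0 were picked after their values were seen. Alternatives were 2 other scalings, 2 filters, 1 fit of all libraries, the replicate block, a pseudocount of 0.1, no fold threshold and each library left out.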

Additional observations from a re-analysis of the deposited data

How the results depend on the processing

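Of the 10 genes, 1 was called between double KO and control lenses, and 0 were called with scaling to the library total, with 1 fit of all 9 libraries or with the replicate block, or in any of the 6 fits with 1 library left out. For all genes, the 51 called between these groups became 19 with 1 fit of all 9 libraries, 10 with the replicate block and 22 to 47 with each library left out. Between compound KO and control lenses, where limma called 0 genes, 2 were called in the fit of all 9 libraries and 0 to 13 with 1 library left out, 13 without compound KO replicate 1. Between double KO and compound KO lenses, the 2 calls became 5 in the fit of all 9 libraries, 1 with a pseudocount of 0.1, 0 with the replicate block or when every library had to reach 1, and 1 to 6 with each library left out. No gene of the 10 was called under any alternative in these last 2 comparisons.

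Libraries with the same replicate number had weakly correlated deviations: after removal of group means the correlations were between −0.106 and 0.216, over 0.1 for 2 of 9 pairs. A library correlated best with its own number in 11 of 18 comparisons with another group, more often than a random pick among 3 libraries would give on average. The numbers were not used as pairs in the reported fits, and a shared effect of the number was not tested further. With the replicate block the adjusted p of *Cdk1* between double KO and control lenses was 0.183 (limma). For the ratio of *Cdkn1c* to *Cdk1*, where the block cannot move the difference of means in a balanced design, the exact permutation p between double KO and control lenses was 0.25, the smallest that 3 pairs allow. That p was likewise fixed by the known separation of both genes.

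Scaling to the library total moved the median of all genes by 0.228 between compound KO and control lenses and by −0.167 between double KO and compound KO lenses. It turned the log2 fold changes of *Cdk1* (0.10) and *Cdkn1b* (0.072) in the former and of *Ccnd2* (−0.17) and *Cdkn1b* (−0.12) in the latter. With each library left out, signs also changed for *Cdkn1b* (−0.38 to 0.12) and *Cdkn1a* (−0.34 to 0.36) between double KO and control lenses, for *Cdk1* (−0.36 to 0.27), *Cdkn1b* (−0.33 to 0.053), *Cdkn1c* (−0.75 to 0.00081) and the ratio of *Cdkn1c* to *Cdk1* (−1.02 to 0.36) between compound KO and control lenses, and for *Cdk4* (−0.15 to 0.15), *Ccnd2* (−0.15 to 0.30) and *Cdkn1b* (−0.20 to 0.26) between double KO and compound KO lenses. The cause was not tested. The low values of *Cdkn1a*, at most 5.1 outside compound KO lenses, are limited by the rounding to 0.1 and the unknown depth.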

Other observations

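Some cell cycle entries were either high or low from library to library within a genotype. *Kif20a*, a kinesin of cytokinesis, was at 0.0, 0.1 and 17.6 in control libraries, 3.3, 4.5 and 19.4 in compound KO libraries and 21.5, 19.2 and 1.5 in double KO libraries. *Cenpe*, a kinetochore kinesin, was between 18.3 and 51.7 in 8 libraries and at 2.0 in double KO replicate 3. *Cdc25a*, a phosphatase that activates Cdks, was at 16.6, 2.7 and 1.6 in control libraries and between 14.7 and 29.6 in the 6 others. These genes were picked after their values were seen, and none of them passed the test in any of the 3 comparisons of genotypes.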
